A study of Mus musculus with 9 samples.

Results

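The cytosolic ribosomal protein genes are the genes whose products, with ribosomal RNA, build the small and the large ribosomal subunit outside mitochondria. Members were taken by symbol, as Rpl or Rps followed by a number and at most 1 letter out of a, x and y, plus Rpsa, Rplp0, Rplp1 and Rplp2, without pseudogene names. This gave 76 of the 27207 genes in the table, 30 of the small subunit (Rps) and 46 of the large subunit (Rpl). All 76 had enough counts to be tested and all 76 were placed on GRCm38.

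RNA was sequenced from whole mouse lungs at E18.5 (late gestation), with 3 libraries per group. The weak CKO and strong CKO groups share 3 components, Tbx4-rtTA, Tet-O-Cre and Dnmt1-D/D. In this inducible system rtTA made under Tbx4 control can turn on Cre, which recombines Dnmt1. The components alone do not give the time of recombination. Tbx4 is a factor of the lung mesenchyme, so other lung cells are not the direct target and still contribute RNA. Dnmt1 is the enzyme that copies DNA methylation after replication. Weak CKO lungs were without haemorrhage, strong CKO lungs bled throughout the parenchyma, and WT lungs carried the wild type genotype. Which Dnmt1 exons were removed and whether the embryos came from separate litters is left unstated by the labels. The p-values therefore reflect only the variation among these 9 lungs, which may be partly technical. In bulk lung RNA, fewer cells of a type and less RNA per cell cannot be told apart.

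Ribosomal protein genes are expressed in nearly every cell, at levels set by growth and by the rate of ribosome assembly. Many of their mRNAs begin with a run of pyrimidines (C or T), the terminal oligopyrimidine motif, which couples their translation to mTOR signalling. In human, loss of 1 copy of several of these genes, RPL35A, RPL5, RPL11 and RPS19 among them, causes Diamond-Blackfan anaemia.

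The start sites are shown because many members carry a pyrimidine run there and because the study removed a methyltransferase that acts on CG pairs. Of the 76 genes, 56 matched by symbol in the RefSeq promoter table (build GRCm38.p6, 300-base windows from 250 bases before to 50 after each start, 27025 genes). A run of at least 5 pyrimidines that opens with C and begins within 10 bases of an annotated start, read on the gene's strand only, was present in 33 of the 56 (58.9%), against 32.6% of all genes in the table. The following 30 bases around a RefSeq start show the run in capitals. That start lies 29 bases inside the GENCODE gene for Rpl35a, which has 3 RefSeq starts, and 45 bases inside it for Rps6.
Rpl35a (chr16:33056467-33056496, + strand): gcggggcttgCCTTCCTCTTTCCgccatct
Rps6 (chr4:86857353-86857382, - strand): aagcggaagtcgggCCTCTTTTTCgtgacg
The dinucleotide CG occurred a median of 21 times per member window (8 to 35), against 7 over all genes, and 25.0% of all windows held 21 or more. It is its own reverse complement, so 1 count serves both strands. The 250 bases upstream of the first RefSeq start of Rpl35a, of the X-linked Rpl39 and of its autosomal paralog Rpl39l follow, with each CG in capitals. The start equals the outer end of the GENCODE gene for Rpl35a, but of the bases shown 180 lie inside the GENCODE gene for Rpl39 and 2 for Rpl39l. Their 300-base windows hold 25 CG pairs in Rpl35a, 17 in Rpl39 and 17 in Rpl39l. DNA methylation itself was not measured here.
Rpl35a (chr16:33056203-33056452, + strand): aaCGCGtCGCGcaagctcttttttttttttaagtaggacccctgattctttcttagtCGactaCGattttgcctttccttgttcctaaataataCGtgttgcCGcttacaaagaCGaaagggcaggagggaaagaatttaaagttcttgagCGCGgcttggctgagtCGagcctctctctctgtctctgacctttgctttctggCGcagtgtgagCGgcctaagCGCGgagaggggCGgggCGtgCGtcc
Rpl39 (chrX:37085223-37085472, - strand): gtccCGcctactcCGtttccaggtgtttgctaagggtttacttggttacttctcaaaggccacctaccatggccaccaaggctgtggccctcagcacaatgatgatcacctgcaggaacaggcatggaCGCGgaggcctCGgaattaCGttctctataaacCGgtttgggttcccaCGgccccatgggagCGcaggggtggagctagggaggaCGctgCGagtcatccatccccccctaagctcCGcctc
Rpl39l (chr16:10169978-10170227, + strand): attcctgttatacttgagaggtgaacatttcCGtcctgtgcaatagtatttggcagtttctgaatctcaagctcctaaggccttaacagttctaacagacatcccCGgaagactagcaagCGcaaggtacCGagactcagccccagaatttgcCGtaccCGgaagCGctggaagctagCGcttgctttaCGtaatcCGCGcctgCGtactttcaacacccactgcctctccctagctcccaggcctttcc

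Library totals ran from 25607595 to 33156732 counts, and levels are given as CPM, counts scaled to a common library size with TMM factors. Dnmt1 reached 59.1, 69.1 and 80.6 CPM in weak CKO lungs, 62.0, 78.7 and 65.1 CPM in strong CKO lungs, and 79.1, 121 and 97.2 CPM in WT. Its log2 change was -0.51 in weak CKO (edgeR adjusted p = 0.0727) and -0.53 in strong CKO (adjusted p = 0.0433), and 12 of 21 alternative settings ended the second call. All 6 lung markers (Sftpc, Nkx2-1, Ager, Foxf1, Tbx4 and Scgb1a1) passed the count filter, with summed levels of 9840 to 10680 CPM in weak CKO, 8646 to 9590 CPM in strong CKO and 9120 to 13370 CPM in WT. Of them, 0 were called higher and 2 lower in weak CKO, and 0 higher and 4 lower in strong CKO. Over all tested genes the shares called lower were 5.38% and 11%. In each comparison 1 lung marker had a log2 change above 0, without a call, of 0.86 in weak CKO and 1.24 in strong CKO. An unadjusted edgeR p under 0.05 was reached by 3 of the 6 in weak CKO and all 6 in strong CKO. Macrophage markers summed to 179.5 to 219 CPM in weak CKO, 178 to 244 CPM in strong CKO and 91.8 to 134 CPM in WT. Of them, 4 of 5 were called higher in weak CKO and 5 of 5 in strong CKO. Over all tested genes the shares called higher were 9.09% and 14.6%. The summed erythroid markers were 3782 to 4397 CPM in weak CKO, 6767 to 12700 CPM in strong CKO and 3953 to 7403 CPM in WT, and none of the 10 passed the test in either comparison (1 of 10 at unadjusted p under 0.05 in weak CKO, 2 of 10 in strong CKO). Of the 5 proliferation markers, 0 were called by edgeR in either comparison and 0 had an unadjusted p under 0.05. The Y-linked Ddx3y was read at 159 to 166 CPM in WT_265_1, WT_549_2 and MUT_W_268_3 and at most 0.0377 CPM in the other 6 libraries, which include all strong CKO lungs.

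The ribosomal protein genes together held close to the same share of each library. The share was 2.44%, 2.56% and 2.94% in weak CKO (mean 2.65% ± 0.262, SD, n = 3), 2.82%, 2.6% and 2.52% in strong CKO (mean 2.65% ± 0.157, SD, n = 3), and 2.87%, 2.70% and 2.87% in WT (mean 2.81% ± 0.0941, SD, n = 3). The groups overlapped, since MUT_W_549_3 had the highest share of all 9 libraries and MUT_W_265_2 the lowest. Haemoglobin genes took 0.370 to 0.420% of counts in weak CKO, 0.670 to 1.25% in strong CKO and 0.369 to 0.669% in WT.

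**Figure D1:**
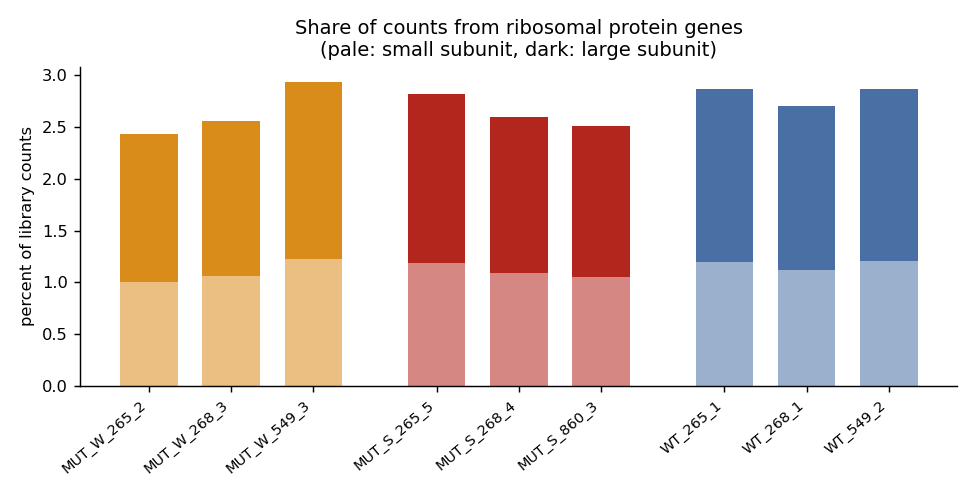
Percent of each library's counts from the 76 cytosolic ribosomal protein genes, stacked as small subunit (pale) and large subunit (dark), for 3 weak CKO, 3 strong CKO and 3 WT lungs. The bars run from 2.44% in MUT_W_265_2 to 2.94% in MUT_W_549_3, and the 3 groups overlap.

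Single members were spread over a wide range of levels. The mean CPM over the 9 libraries ran from 0.943 to 1268 with a median of 329.6, and 15 members exceeded 500 CPM. Between genes, levels are compared as CPM per kb of the longest principal transcript in GENCODE M21, because the deposited gene length was a median of 4.15 times that transcript (0.59 to 18 times) and, for 72 of the 76 genes, within 2% of the exons of all transcripts added up. On that scale Rps15, a protein of the small subunit head, came first with 1211 CPM per kb. It was followed by Rps27 with 1148, Rps14 with 930.5, the acidic stalk protein Rplp1 with 879 and Rpl4, which lines the exit tunnel, with 824 CPM per kb. Rpl35a, a large subunit protein, stood at rank 57 with 212 CPM per kb, against a member median of 372 CPM per kb. By the deposited RPKM the same gene stood at rank 72, with a mean of 15.1 RPKM, and Rplp1 led with 800 RPKM. Ranks by CPM per kb also depend on the annotation. The transcript used has 5179 bases in Rps15a and 3706 in Rps20, beside 519 in Rpl35a.

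The 3 lowest members were Rpl24 with 1.4, Rps10 with 4.1 and Rpl23a with 8.8 CPM per kb. Rpl24 and Rps10 each overlap another annotated gene on the same strand (Gm28037 and RPS10-NUDT3), neither of which has a row in the table under that name. The rule for reads shared by overlapping genes or by near-identical copies is unstated, which leaves counts of these members uncertain. Same-strand overlaps affect 5 members (Rpl24, Rps10, Rpl13, Rpl13a and Rpl19), and 21 overlap a gene on the other strand, which matters where strand was not used in counting. Rpl13 (286.7 CPM) and Rpl13a (42.6 CPM) also overlap genes without a row, Gm20388 and Gm45713. Rpl23a overlaps no annotated gene on its own strand. Whether an overlap lowers the counts was not tested.

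Most members varied little from lung to lung. The pooled within-group SD of log2 CPM had a median of 0.11, the highest library exceeded the lowest by a median factor of 1.29, and 73 of the 76 stayed under a factor of 2. The exceptions were Rpl35a and Rpl23a, close to 2, and Rpl29 with a factor of 5.08. It was at 109.8, 69.6 and 29.5 CPM in weak CKO, at 124, 28.1 and 24.5 CPM in strong CKO and at 83.0, 117 and 81.8 CPM in WT. High and low libraries of Rpl29 occurred inside both CKO groups, so the groups overlapped.

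Rps2 and Rpsa were highest where counts of a pseudogene of their own were nearly missing. These pairs were picked after their values were seen. Rps2, a protein of the mRNA entry channel, was at 227, 242 and 267 CPM in weak CKO, at 291, 312 and 361 CPM in strong CKO and at 193, 230.5 and 318 CPM in WT. Rps2-ps13 had 997, 1279 and 1283 counts in weak CKO, 1184, 1099 and 4 counts in strong CKO and 2025, 1142 and 1 counts in WT. The libraries with 4 counts (MUT_S_860_3) and 1 count (WT_549_2) were the ones with the highest Rps2 level of their group. Rpsa-ps10 had 1809, 2252 and 5 counts in weak CKO, 1938, 4 and 2058 in strong CKO and 2283, 2602 and 9 in WT. Rpsa, the laminin receptor protein of the small subunit, was highest in its group in the same MUT_W_549_3, MUT_S_268_4 and WT_549_2 libraries that had 5, 4 and 9 pseudogene counts, at 505, 443 and 537 CPM. Another pair, Rpl14 and Rpl14-ps1, had 33 to 52 pseudogene counts in those 3 libraries and 292 to 469 in the other 6. Rpl14 itself was highest in its group in MUT_W_549_3 (379.5 CPM). It was not in MUT_S_268_4 (335.6, beside 347.5 CPM in MUT_S_265_5) or WT_549_2 (404.2, beside 404.9 CPM in WT_265_1). With gene and pseudogene summed, Rps2 stayed highest in MUT_S_860_3 (360.8 CPM) and WT_549_2 (317.9 CPM). Summed Rpsa stayed highest in MUT_W_549_3 (505.5 CPM) but not in MUT_S_268_4 or WT_549_2. Presence of these pseudogene counts followed single libraries and not the groups. The log2 change of Rps2 in strong CKO was 0.38 ± 0.16 (SE, edgeR adjusted p = 0.122) and that of Rpsa was -0.26 ± 0.12 (adjusted p = 0.144).

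In weak CKO lungs, 1 member rose (Rpl35a) and 4 fell (among them Rps4x, Rps16 and Rpl5) at an edgeR adjusted p under 0.05 over all 19374 genes tested. Over all tested genes the called shares were 9.09% higher and 5.38% lower. The members' 5.26% called lower is near that background and is not a result about the class. The median log2 change of the 76 was -0.13, beside -0.008 for all tested genes, and 68 of the 76 had a value below 0. In 10 members (13.2%) every weak CKO library lay below every WT library, against 13.8% of all tested genes.

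In strong CKO lungs, 1 member rose (Rpl41) and 13 fell, beside 14.6% higher and 11% lower among all tested genes. The members called lower made up 17.1% of the class. They included Rps4x, Rpl10, Rpl5, Rps12, Rps16, Rpl7, Rpl6, Rplp0, Rpl22, Rpl15 and Rpl35a. The log2 changes of all 13 ran from -0.50 to -0.24, which is 70.7% to 85.0% of the WT level. The median log2 change of the 76 was -0.17, beside -0.001 for all tested genes, and 69 had a value below 0. In 29 members (38.2%) every strong CKO library lay below every WT library, against 19% of all tested genes, and in 1 member (Rpl41, 1.32%) every strong CKO library lay above, against 22.7%. The summed macrophage markers given above were higher in every strong CKO library than in any WT library, and the summed erythroid markers overlapped between these groups. Fitted with a covariate for erythroid level, the strong CKO median was -0.16, with 69 of the 76 below 0. With 3 libraries per group this fit cannot separate cell content from group. The part of either cell type in these falls was not tested. All 4 members that fell in weak CKO also fell in strong CKO, but both comparisons use the same WT lungs. The median stayed below 0 in both comparisons under every scaling tried, and was smallest with total counts as library size (-0.07 in weak CKO and -0.08 in strong CKO), where 0 and 5 members were called lower. That scaling also moved the calls over all genes, from 62.8% higher to 76.4% higher in weak CKO and from 57.0% to 72.9% in strong CKO. All calls then numbered 2974 in weak CKO and 5277 in strong CKO, beside 2803 and 4969 as reported. Leaving out MUT_S_860_3 left 4 members called lower in strong CKO, and leaving out MUT_W_549_3 gave 14 called lower in weak CKO. Over all genes, the first gave 3610 calls in strong CKO (2234 higher), beside 4969 (2830 higher) as reported. The second gave 2792 calls in weak CKO (1755 higher), beside 2803 (1761 higher). With the Ddx3y level as a covariate, an alternative chosen after the data were seen, Rps4x, Rpl10 and Rpl5 were the members still called in strong CKO. That covariate left 2896 calls over all genes in strong CKO (1711 higher). The shares set beside all tested genes above hold for the reported fit only.

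**Figure D2:**
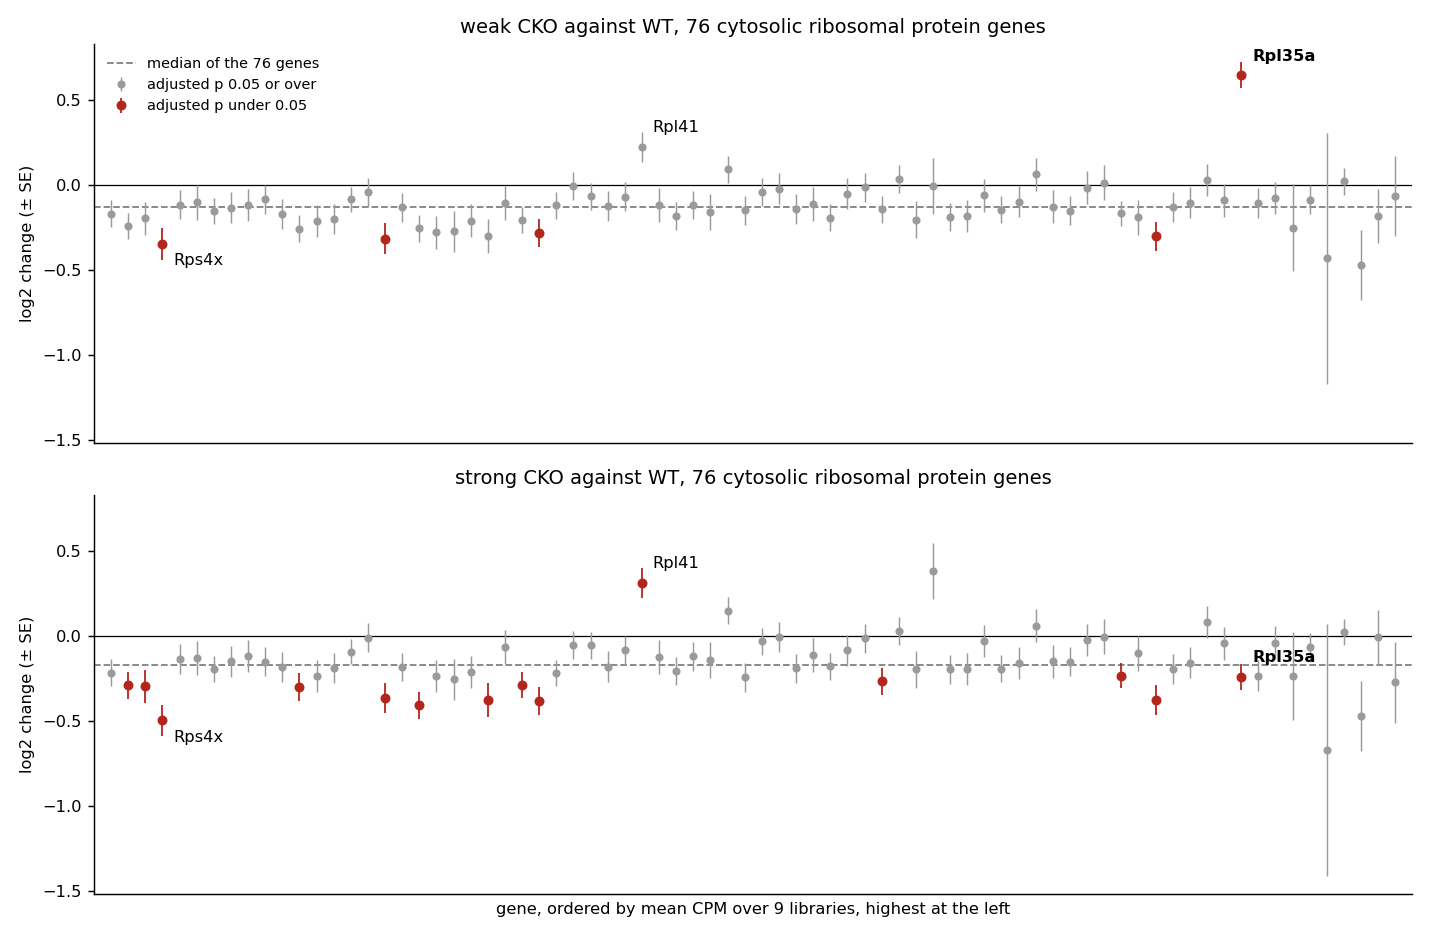
Log2 change with its SE of each of the 76 genes in weak CKO against WT (top) and strong CKO against WT (bottom), genes ordered by mean CPM, with Rpl35a, Rpl41 and Rps4x marked by name. Red points passed the edgeR test, the dashed line is the class median (-0.13 and -0.17), and Rpl35a stands at 0.64 in the top panel and -0.24 in the bottom one.

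Rpl35a (ENSMUSG00000060636, chr16:33056453-33060189, plus strand, GRCm38) is a protein of the large subunit and stood apart from the other 75. It was at 141, 149.6 and 163 CPM in weak CKO, at 89.0, 79.0 and 77.6 CPM in strong CKO and at 102, 92.2 and 96.7 CPM in WT. All weak CKO libraries were above all others, and all strong CKO libraries were below all WT libraries. The weak CKO mean was 151 ± 10.9 CPM, the strong CKO mean 81.9 ± 6.22 CPM and the WT mean 96.9 ± 4.75 CPM (SD, n = 3 each). Since the gene was singled out with earlier results of these data known, its changes are given as a description, with the adjusted p of the fit over all genes. It rose 1.56-fold in weak CKO, a log2 change of 0.64 ± 0.08 (SE, edgeR adjusted p = 0.000475), rank 1 of 76. The call held under all 21 alternatives, with log2 changes of 0.59 to 0.70. In strong CKO the log2 change was -0.24 ± 0.08 (SE, adjusted p = 0.0411), rank 60, close to the class median of -0.17, and 14 of the 21 alternatives ended that call.

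Set against weak CKO, the strong CKO lungs had 54.1% of the Rpl35a level, a log2 change of -0.89 ± 0.08 (SE, edgeR adjusted p = 0.00623). It was the only gene of all 19374 tested to pass in that comparison, a background of 0.00516%, while DESeq2 called 15 genes and 1099 genes had an unadjusted p under 0.05. The other 75 members had log2 changes of -0.24 to 0.39 and adjusted p-values of at least 0.873. Strong CKO libraries all lay below the weak CKO libraries in 2 members (Rpl35a and Rpl10), beside 6.73% of all genes, and all above in 1 (Rps2), beside 6.7%. The difference passed the test under 20 of 21 alternatives (log2 changes of -0.95 to -0.82 over all 21) and missed it with the erythroid marker level as a covariate, at -0.86 with an adjusted p of 0.171. The erythroid markers moved with this comparison: their median log2 change, strong CKO against weak CKO, was 0.82, in 7 of the 10 every strong CKO library lay above every weak CKO library, and 6 had an unadjusted p under 0.05, with 0 called by edgeR.

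The gene next to Rpl35a did not share this pattern. Iqcg, an axonemal protein gene on the minus strand, starts 235 bases upstream of the Rpl35a start, inside the upstream sequence printed for Rpl35a. It was at 27.3, 25.3 and 22.8 CPM in weak CKO, at 33.1, 30.3 and 29.6 CPM in strong CKO and at 18.8, 15.8 and 11.8 CPM in WT. Both CKO groups lay above all WT libraries, and strong CKO lay above weak CKO. The log2 change was 0.70 ± 0.15 in weak CKO (SE, edgeR adjusted p = 0.0119), 1.0 ± 0.15 in strong CKO (adjusted p = 0.00106) and 0.30 ± 0.15 in strong CKO against weak CKO (adjusted p = 0.873). Gm17106, annotated antisense across Rpl35a, had at most 0.376 CPM in any library.

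Among the small subunit genes, 0 rose and 2 fell in weak CKO and 0 rose and 4 fell in strong CKO, of 30. The shares lower, 6.67% and 13.3%, are near those of all tested genes, 5.38% and 11%. Rps4x, an X-linked protein of the small subunit, was at 675, 688 and 814 CPM in weak CKO, at 677, 666 and 616 CPM in strong CKO and at 993, 874 and 903 CPM in WT. Neither CKO group overlapped WT. The log2 change was -0.35 ± 0.09 in weak CKO (SE, edgeR adjusted p = 0.0327), where 10 of 21 alternatives ended the call, and -0.50 ± 0.09 in strong CKO (adjusted p = 0.00359), where all 21 kept it. Rps16, whose tail reaches the decoding site, was at 154, 153 and 181 CPM in weak CKO, at 169, 152 and 143 CPM in strong CKO and at 213, 192 and 198 CPM in WT, again without overlap with WT. It fell by 0.30 in weak CKO (adjusted p = 0.0412), lost under 12 of 21 alternatives, and by 0.38 in strong CKO (adjusted p = 0.00987). Rps12 was at 381, 389 and 480.2 CPM in weak CKO, at 421, 396 and 367 CPM in strong CKO and at 536, 479 and 527 CPM in WT, and only its strong CKO libraries were clear of WT. It fell by 0.38 in strong CKO (adjusted p = 0.0185), a call that 5 of 21 alternatives ended.

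The small subunit genes with the best known signalling or disease roles did not pass. Rps6, the protein phosphorylated by S6 kinase, had log2 changes of -0.15 in weak CKO (adjusted p = 0.276) and -0.24 in strong CKO (adjusted p = 0.0573). Rps27a, made as a fusion with ubiquitin, had -0.16 (adjusted p = 0.365) in weak CKO and -0.14 (adjusted p = 0.36) in strong CKO. Rps19, the gene most often mutated in human Diamond-Blackfan anaemia, was at 302, 306 and 344 CPM in weak CKO, at 350.1, 304 and 308 CPM in strong CKO and at 349, 292 and 325 CPM in WT. Its groups overlapped fully, with log2 changes of -0.02 ± 0.09 in weak CKO and -0.01 ± 0.09 in strong CKO (SE) whose sign depended on the scaling.

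Among the 46 large subunit genes, 1 rose and 2 fell in weak CKO and 1 rose and 9 fell in strong CKO. The shares lower were 4.35% in weak CKO and 19.6% in strong CKO, beside 5.38% and 11% of all tested genes. Rpl10, an X-linked protein next to the peptidyl transferase centre, was at 427, 434 and 490.1 CPM in weak CKO, at 416, 409 and 388 CPM in strong CKO and at 578, 522 and 512 CPM in WT. The 3 groups did not overlap, with strong CKO lowest. Its log2 change was -0.26 ± 0.08 in weak CKO (SE, edgeR adjusted p = 0.0559) and -0.41 ± 0.08 in strong CKO (adjusted p = 0.00429), called under all 21 alternatives. The other X-linked members, Rpl36a and Rpl39, had -0.03 (adjusted p = 0.86) and -0.24 (adjusted p = 0.0785) in strong CKO. Of the 4 X-linked members, 2 were called in strong CKO. The Y-linked Ddx3y was read in WT_265_1 and WT_549_2 and was nearly absent from all strong CKO lungs, as given above. Sex, as read from Ddx3y, and strong CKO therefore cannot be fully told apart in this comparison.

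Rpl5 and Rpl11 bind 5S ribosomal RNA and, when free, restrain Mdm2. Rpl5 was at 374, 371 and 447 CPM in weak CKO, at 374, 372 and 362 CPM in strong CKO and at 504, 463 and 481 CPM in WT, without overlap with WT in either CKO group. It fell by 0.28 in weak CKO (adjusted p = 0.0437), a call that 15 of 21 alternatives ended, and by 0.39 in strong CKO (adjusted p = 0.00659), kept by all 21. Rpl11 had log2 changes of -0.12 in weak CKO (adjusted p = 0.389) and -0.12 in strong CKO (adjusted p = 0.318), and its groups overlapped. In the acidic stalk, which recruits elongation factors, Rplp0 fell by 0.29 in strong CKO (adjusted p = 0.021), while Rplp1 had -0.07 (adjusted p = 0.65) and Rplp2 -0.10 (adjusted p = 0.492). Rpl22, a large subunit protein that also binds other RNAs, fell by 0.27 in strong CKO (adjusted p = 0.031), and 8 of 21 alternatives ended the call. Rpl38, known in mouse for its effect on Hox mRNA translation, had -0.08 (adjusted p = 0.652) in weak CKO and -0.04 (adjusted p = 0.786) in strong CKO.

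Rpl41, the shortest ribosomal protein, went against the class. It was at 349, 379 and 415 CPM in weak CKO, at 439, 381 and 394 CPM in strong CKO and at 329, 303 and 347 CPM in WT. Every CKO library exceeded every WT library, by little for the lowest weak CKO library. The log2 change was 0.22 ± 0.09 in weak CKO (SE, edgeR adjusted p = 0.121) and 0.31 ± 0.09 in strong CKO (adjusted p = 0.0258), a 1.24-fold rise that 4 of 21 alternatives ended.

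**Figure D3:**
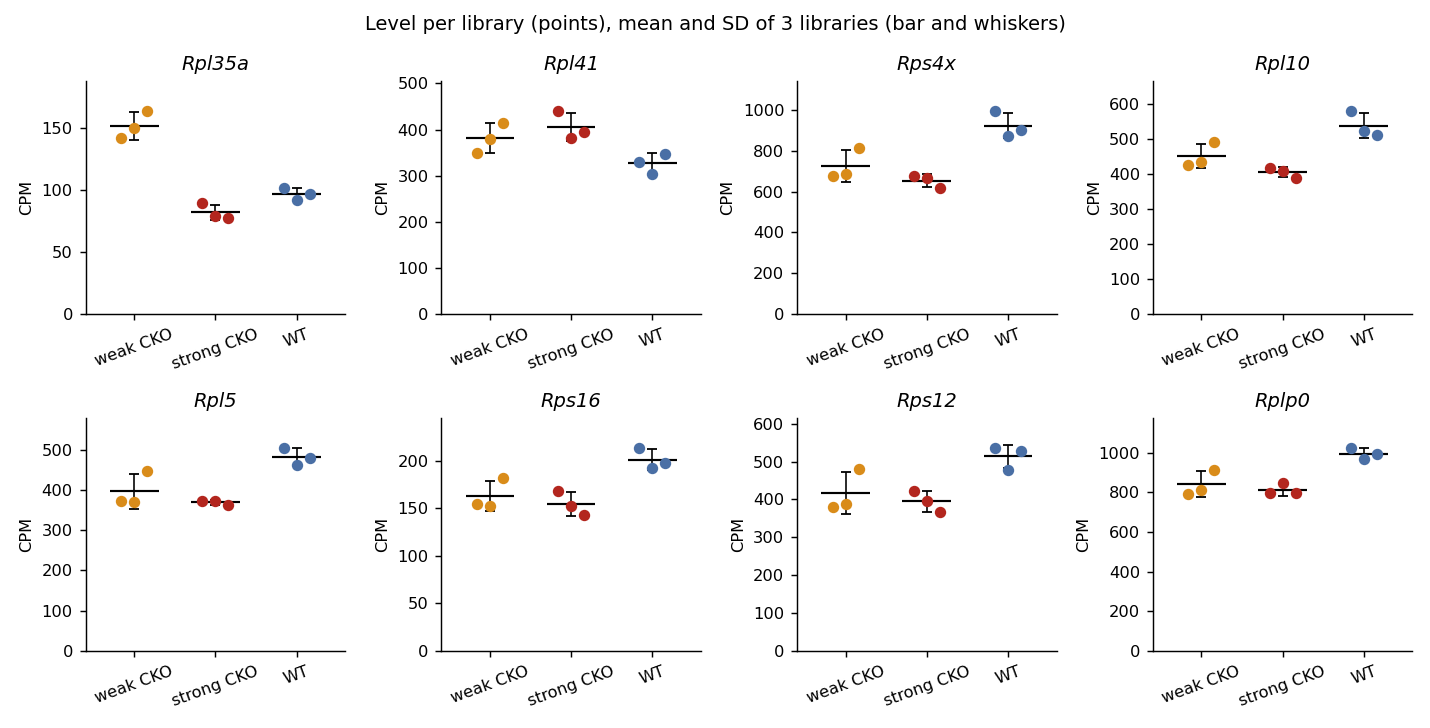
CPM per library of Rpl35a, Rpl41 and 6 members that fell in strong CKO, in weak CKO, strong CKO and WT lungs (points), with the mean and SD of 3 libraries. Rpl35a is highest in weak CKO (151 CPM) and Rpl41 highest in strong CKO (405 CPM), while the other 6 are highest in WT.

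Of the 18 listed genes linked to Diamond-Blackfan anaemia in human, 1 rose (Rpl35a) and 1 fell (Rpl5) in weak CKO, and 0 rose and 3 fell (Rpl5, Rpl15 and Rpl35a) in strong CKO. The shares lower, 5.56% in weak CKO and 16.7% in strong CKO, stand beside 5.38% and 11% of all tested genes. Their median log2 change was -0.11 in weak CKO and -0.12 in strong CKO.

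Paralogs and other ribosomal proteins outside the naming rule were counted apart. Of 13, 3 rose and 0 fell in weak CKO and 4 rose and 0 fell in strong CKO, beside 9.09% and 14.6% higher among all tested genes, and this list was drawn up with earlier results known. Rpl39l, a testis-enriched paralog of the large subunit protein Rpl39, was at 22.9, 23.8 and 15.4 CPM in weak CKO, at 31.2, 20.6 and 25.6 CPM in strong CKO and at 0.105, 0.0969 and 0.0622 CPM in WT, where its counts summed to 8. The mean CPM was 235 times the WT mean in weak CKO and 293 times in strong CKO (edgeR adjusted p = 1.45e-06 and 9.53e-07). Its CPM reached 13.7 to 23.4% of that of Rpl39 in weak CKO libraries and 22.2 to 29.4% in strong CKO libraries. In WT it reached at most 0.0937%. These shares are of CPM without length. The principal transcript has 805 bases in Rpl39l and 612 in Rpl39, so the shares are lower per kb. Rpl39 had log2 changes of -0.11 (adjusted p = 0.471) in weak CKO and -0.24 (adjusted p = 0.0785) in strong CKO.

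Rpl10l, the autosomal copy of the X-linked Rpl10 that serves male meiosis in mouse, had 16, 25 and 11 counts in weak CKO, 21, 12 and 16 counts in strong CKO and 0 counts in every WT library. Against a floor of 3 counts over the 3 WT libraries (0.0327 CPM), it was at least 16.7-fold higher in weak CKO and at least 17.9-fold higher in strong CKO, limits that cover counting error only. Rps4l, a paralog of Rps4x, averaged 69.1 ± 5.08 CPM in weak CKO, 79.4 ± 4.98 CPM in strong CKO and 41.6 ± 5.07 CPM in WT (SD, n = 3 each). Its log2 change was 0.73 ± 0.10 in weak CKO (SE, edgeR adjusted p = 0.000889) and 0.93 ± 0.10 in strong CKO (adjusted p = 0.000132). Rps4x and Rps4l are similar in sequence, so a split of reads between them is uncertain. Rpl7l1 rose in strong CKO, with a log2 change of 0.27 ± 0.06 (SE, adjusted p = 0.0102).

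**Figure D4:**
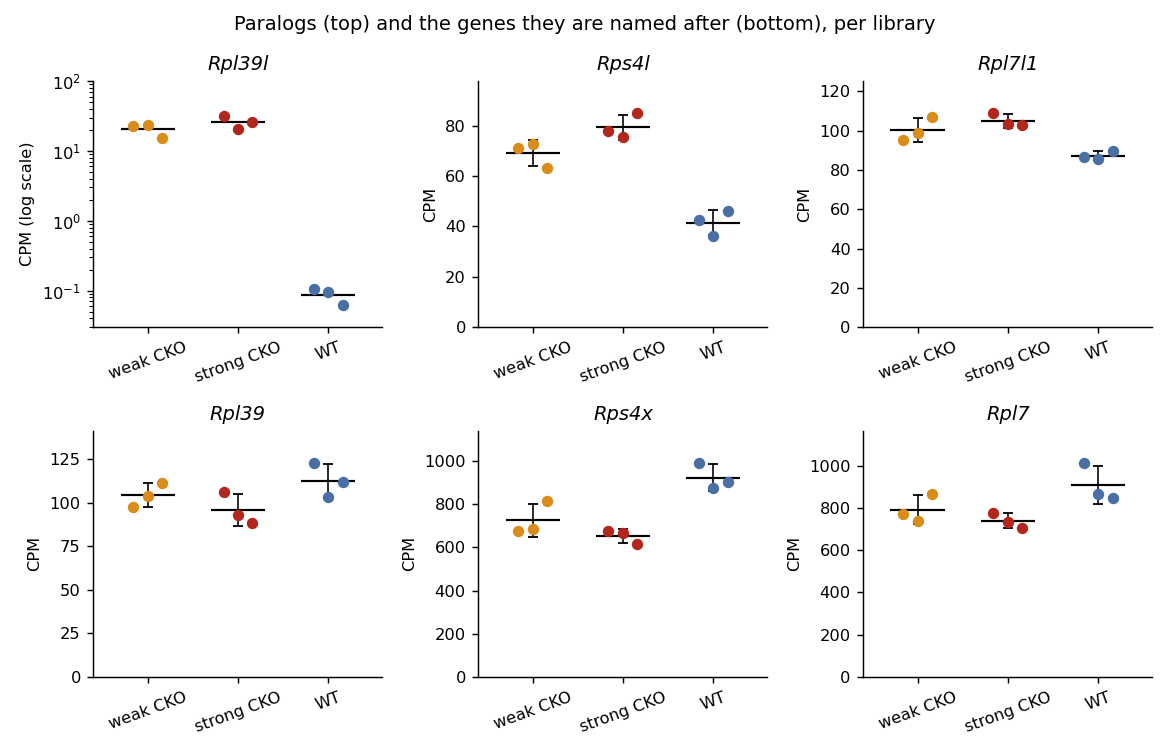
CPM per library (points) and group mean (bar) of Rpl39l (log axis), Rps4l and Rpl7l1, above Rpl39, Rps4x and Rpl7, in weak CKO, strong CKO and WT lungs, with SD whiskers on the linear axes. Every CKO library of the 3 paralogs lies above every WT library, whereas Rpl39, Rps4x and Rpl7 have their highest mean in WT.

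Of 17 genes outside the class, mostly of translation, whose mRNAs are known for an oligopyrimidine start, 0 rose and 2 fell in weak CKO (median log2 change -0.16) and 0 rose and 6 fell in strong CKO (median -0.22). The shares lower were 11.8% in weak CKO and 35.3% in strong CKO, beside 5.38% and 11% of all tested genes. Nap1l1, a histone chaperone, had the largest change, -0.68 ± 0.09 in weak CKO (SE, edgeR adjusted p = 0.000714) and -0.72 ± 0.09 in strong CKO (adjusted p = 0.000316). Eef1a1, which delivers aminoacyl-tRNA, averaged 3506 ± 200 CPM in strong CKO and 4532 ± 368 CPM in WT (SD, n = 3 each; adjusted p = 0.0207). The initiation factor 3 subunits Eif3e and Eif3f fell by 0.48 (adjusted p = 0.0115) and 0.33 (adjusted p = 0.00925) in strong CKO.

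Of 30 ribosome assembly factors, 4 rose and 0 fell in weak CKO (median log2 change 0.10) and 13 rose and 1 fell in strong CKO (median 0.23), with medians above 0 under each scaling tried. The share higher in weak CKO, 13.3%, is near the 9.09% of all tested genes, and in strong CKO it was 43.3%, beside 14.6%. Nip7, a factor of large subunit assembly, averaged 29.9 ± 2.28 CPM in strong CKO and 20.5 ± 1.42 CPM in WT (SD, n = 3 each; log2 change 0.54, adjusted p = 0.00148). Nop58, a core protein of box C/D ribonucleoproteins, had 0.52 (adjusted p = 0.00211) and Tsr1, a factor of small subunit maturation, 0.55 (adjusted p = 0.00552) in strong CKO. The member that fell was Sbds, which releases Eif6 from the large subunit, with a log2 change of -0.33.

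Mitochondrial ribosomal proteins, encoded by separate nuclear genes, had 3 higher and 2 lower of 77 tested in weak CKO and 5 higher and 1 lower in strong CKO, with medians of 0.03 and 0.05. The shares higher, 3.9% and 6.49%, lie below those of all tested genes, 9.09% and 14.6%. Mrps16 rose in both (log2 changes of 0.33 and 0.35) and Mrpl14 fell in both (-0.36 and -0.48). Of 16 genes that control growth and ribosomal protein synthesis, 1 rose and 2 fell in weak CKO. In strong CKO, 2 rose and 3 fell. The shares higher, 6.25% and 12.5%, lie below the 9.09% and 14.6% of all tested genes. The shares lower were 12.5% and 18.8%, beside 5.38% and 11%, and rest on 2 and 3 genes. Cdkn1a, the cell cycle inhibitor p21, rose (0.66 ± 0.17 in weak CKO and 0.74 ± 0.17 in strong CKO, SE), and Trp53 rose in strong CKO (0.48 ± 0.09). Eif4ebp1, a translation repressor under mTOR, fell by 0.31 in weak CKO and by 0.35 in strong CKO.

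**Figure D5:**
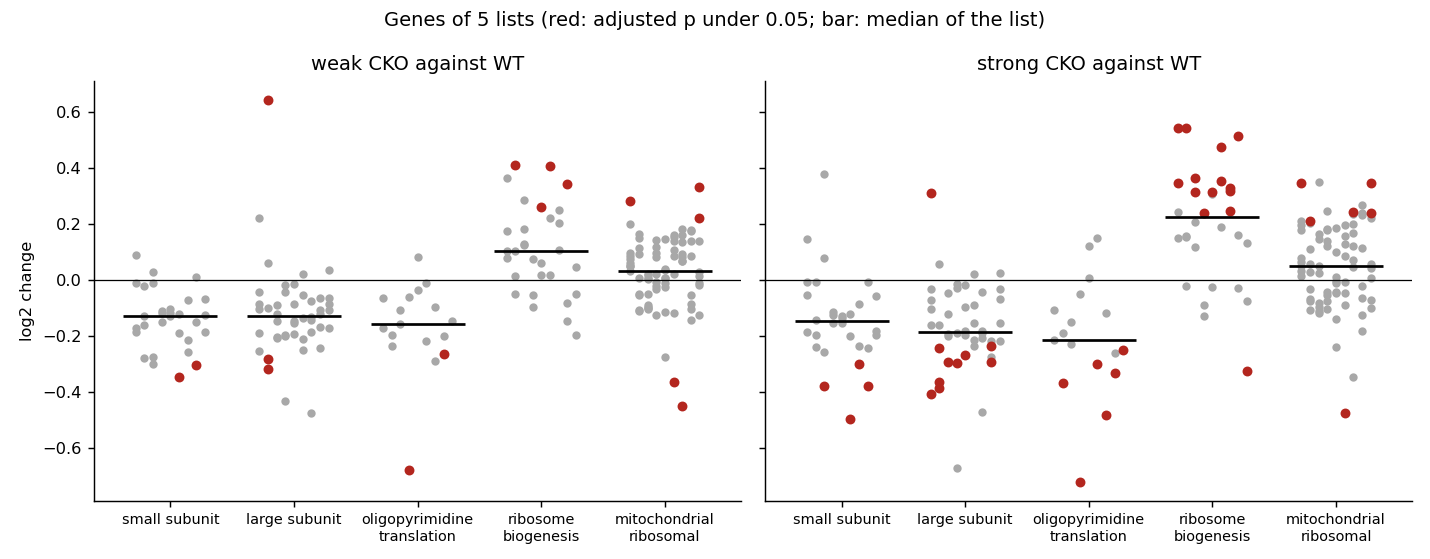
Log2 change of each gene in 5 lists for weak CKO against WT (left) and strong CKO against WT (right), with red for adjusted p under 0.05 and a bar at each list's median. In strong CKO the medians are -0.15 for the small subunit, -0.19 for the large subunit, -0.22 for the other genes with an oligopyrimidine start, 0.23 for ribosome biogenesis and 0.05 for mitochondrial ribosomal proteins.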

How the data were processed

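RNA was sequenced with TruSeq libraries read as single 75-base reads, per the labels. One table of the whole series was used, with counts per gene and library deposited by the authors without normalisation, and RPKM values per the file headers. The submitters' processing notes list the build GRCm38.p6, the aligner STAR, edgeR 3.28.1 and, for read quality and trimming, Trimmomatic 0.36, cutadapt 2.5 and FastQC 0.11.8. The counting tool, strandedness and handling of reads with several matches are not given in the sources used here.

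Of 27207 genes, 19374 passed filterByExpr. Counts were fitted with edgeR 4.0.16 (R 4.3.3), TMM factors of 0.938 to 1.04, 1 mean per group and robust quasi-likelihood dispersions estimated over all 9 libraries. Two-sided tests were adjusted by Benjamini-Hochberg over all 19374 genes at 0.05. An exact permutation test of 3 against 3 cannot go below 0.1 and was not used. The script was tested on simulated data. Alternatives were other scalings, no filter, DESeq2 1.42.0, limma 3.58.1 on log2(RPKM + 1) and log2(RPKM + 0.1), 2 groups alone, a library number block, erythroid and Ddx3y covariates and each library left out.

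Members and lists were chosen with earlier results of these data known. Named genes were Rpl35a, the 6 highest and 3 lowest members by deposited RPKM, up to 6 rises and falls per comparison, fixed role members and up to 4 called genes per other list. Positions and transcript lengths came from GENCODE M21. Some members count in the totals but are not reported by name here.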

Additional observations from a re-analysis of the deposited data

Results flagged for a closer look

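Rpl35a responded differently in the CKO groups: the direct comparison of strong CKO with weak CKO gave a log2 change of -0.89 ± 0.08 (SE, edgeR adjusted p = 0.00623). All 3 strong CKO libraries (77.6 to 89.0 CPM) lay below all 3 weak CKO libraries (141 to 163 CPM), with WT at 92.2 to 102 CPM.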

How the results depend on the processing

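The count of called members depended on the setting. In weak CKO it was 5 as reported, 10 with DESeq2, 2 with limma on log2(RPKM + 0.1), and 1 with total counts, the 2 groups alone, limma on log2(RPKM + 1), the erythroid covariate or the Ddx3y covariate. In strong CKO it was 14 as reported, 6 with total counts and 3 with the Ddx3y covariate. In strong CKO against weak CKO it was 1, and 0 with the erythroid covariate, where edgeR called no gene at all. Leaving out each library in turn gave 1 to 15 members in weak CKO, 4 to 17 in strong CKO and 1 in strong CKO against weak CKO. The weak CKO count was 1 without WT_265_1, WT_549_2, MUT_W_265_2, MUT_W_268_3 or MUT_S_268_4, 2 without WT_268_1, 3 without MUT_S_265_5 or MUT_S_860_3 and 15 without MUT_W_549_3. The strong CKO count was 9, 7 and 4 without MUT_S_265_5, MUT_S_268_4 and MUT_S_860_3. Calls over all genes moved too. Weak CKO had 2803 as reported, 3420 with DESeq2, 2974 with total counts, 2054 with the 2 groups alone and 2240 with the erythroid covariate. It had 2214 and 2402 with limma, 1910 with the Ddx3y covariate and 1310 to 2828 with single libraries left out. Strong CKO had 4969 as reported, 5277 with total counts, 2896 with the Ddx3y covariate and 3101 to 4983 with single libraries left out.

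Rpl35a in strong CKO lost its call with upper quartile factors (-0.214), total counts (-0.155), no filter (-0.232), the 2 groups alone (-0.236), limma (-0.212 and -0.228), the erythroid covariate (-0.234) and the Ddx3y covariate (-0.211), and ranged from -0.301 to -0.197 with single libraries left out. Against weak CKO it was -0.865 with the erythroid covariate. With single libraries left out, Rpl35a in weak CKO ranged from 0.588 to 0.692 and in strong CKO against weak CKO from -0.950 to -0.830. Dnmt1 in weak CKO passed with DESeq2 (-0.516) and the erythroid covariate (-0.712), and ranged from -0.647 to -0.341 with libraries left out. Dnmt1 in strong CKO missed with upper quartile factors (-0.506), total counts (-0.448), no filter (-0.520), the 2 groups alone (-0.525), limma (-0.379 and -0.486) and the erythroid covariate (-0.363), and ranged from -0.668 to -0.362. The cause was not tested.

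Uncalled members close to 0 changed sign. Rps19 in strong CKO was 0.023 with upper quartile factors, 0.082 with total counts, 0.004 without a filter, 0 with the 2 groups alone, 0.009 with limma and 0.040 with the Ddx3y covariate. Rps19 in weak CKO was 0.035 with total counts, 0.001 with the erythroid covariate and 0.003 with the Ddx3y covariate. In strong CKO with total counts, Rplp1 was 0.019 and Rpl38 0.047, and Rpl38 was 0.019 with the Ddx3y covariate. With libraries left out, Rps19 ranged from -0.071 to 0.056 in strong CKO and from -0.088 to 0.040 in weak CKO, and Rpl38 from -0.125 to 0.034 in strong CKO. Of the log2 changes of the named members other than Rpl35a under the alternatives, 763 kept direction and side of the threshold, 77 lost a call, 16 gained one and 26 changed sign.

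The library number was tried as a replicate block. Correlations of deviations from the group mean were -0.087 to 0.346 between same-numbered libraries and -0.38 to 0.19 between differently numbered ones. The labels do not state what the number marks, so it served only as an alternative. Over all genes, the block called 3926 in weak CKO, beside 2803 without it, and 4450 in strong CKO, beside 4969. The block gave 9 called members in weak CKO and 6 in strong CKO (2 higher and 4 lower). In strong CKO the median log2 change of the 76 was -0.087 in place of -0.172, and 57 were below 0. Number 860 occurs in MUT_S_860_3 only, so under the block the strong CKO change rests on MUT_S_265_5 and MUT_S_268_4. Leaving out MUT_S_860_3 without a block gave a median of -0.122. The block and the loss of that library cannot be told apart in strong CKO. Under the block Rpl35a in strong CKO was -0.179, Dnmt1 in weak CKO passed at -0.501, and in strong CKO Rplp1 was 0.032, Rps19 0.055 and Rpl38 0.028. The 3 libraries per group limit the precision, and members with few counts such as Rpl24 (22 to 37 counts) give little.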
